A study of Mus musculus with 4 samples.

Results

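The genes described here encode the proteins of the cytosolic ribosome, measured in NIH-3T3, an established fibroblast line from mouse embryos. Members were all probes whose platform gene symbol began with Rpl or Rps and a digit, or with Rplp or Rpsa, without the Rps6k kinases and without pseudogene symbols. This rule gave 84 of the 25697 probes on the array, for 66 of the 16593 genes named on it, out of 89 protein-coding genes with such a symbol in RefSeq. The large subunit had 53 probes for 40 genes and the small subunit had 29 probes for 24 genes. Rps19bp1 and Rps23rg1 matched by symbol alone and were counted in neither subunit. Microvesicles, small membrane-bound particles that cells release, had been purified from the medium of cultured cardiomyocytes and given to the fibroblasts. There were 2 samples of fibroblasts that had received microvesicles and 2 samples of control fibroblasts, each on its own Illumina bead array. The line and the Claycomb medium were shared by all 4 samples, and the dose of microvesicles, the time after transfer and what the control cells received are not given in the sources used here. Both microvesicle arrays lay at positions G and H and both control arrays at positions A and B of 1 chip, so the place on the chip and the treatment cannot be told apart. The labels do not say whether replicates came from separate cultures, and the p-values then reflect only how far these samples differed, a spread that may be technical.

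The small ribosomal subunit reads the messenger RNA, and the large subunit joins the amino acids. Ribosomal proteins are made in step with each other and with ribosomal RNA, and a growing fibroblast devotes a large part of its messenger RNA to them. Their mRNAs classically begin with a 5′ terminal oligopyrimidine (TOP) tract, a C followed by a run of C and T, through which signalling by mTOR sets how strongly they are translated. That control acts on translation and need not show in the amount of RNA, which is what these arrays measured.

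The tract is shown for 6 members whose values are described below or that had long tracts. Each line runs 5′ to 3′ from 25 bases before an annotated start and has the tract, which begins at the start itself, in capitals. Rpl35a has further annotated starts, with tracts of 1 and 0 bases, that are not shown. The sequences are from RefSeq, build GRCm38.p6.
Rps6 (chr4:86857348-86857392, minus strand): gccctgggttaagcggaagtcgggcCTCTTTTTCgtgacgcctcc
Rps10 (chr17:27635225-27635269, minus strand): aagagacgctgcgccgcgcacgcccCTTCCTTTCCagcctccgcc
Rps27 (chr3:90213629-90213673, minus strand): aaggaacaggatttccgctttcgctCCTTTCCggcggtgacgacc
Rpl35 (chr2:39005112-39005156, minus strand): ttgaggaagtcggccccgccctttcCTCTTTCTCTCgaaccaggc
Rpl35a (chr16:33056457-33056501, plus strand): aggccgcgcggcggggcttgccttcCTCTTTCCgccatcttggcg
Rpl38 (chr11:114668555-114668599, plus strand): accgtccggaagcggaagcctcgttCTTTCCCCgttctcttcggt

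Of the 64 member genes of both subunits, 55 had at least 1 promoter sequence, 66 in all. A tract of at least 5 bases at 1 or more annotated starts was found in 11 of the 55 (20%), against 3.01% of 27025 genes. Annotated starts often lie a few bases from the start used in cells, and a window without a tract says only that these letters are not at that position. Over the 300 bases of each promoter sequence, on both strands, the letters CCGGAAG, a form of the ETS-factor motif, occurred in 22 of 55 genes (40%) and in 9.93% of all genes. The letters CTTTCC, which can be part of the tract, occurred in 28 (50.9%) against 29.3%, and the letters AAGATGG, the core of the YY1 motif, in 10 (18.2%) against 7.28%. These matches are descriptions of the sequence, not of factor binding.

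The arrays were dim. The median brightness was 39.9 and 40.2 on the microvesicle arrays and 41.1 and 41.2 on the control arrays, and the 95th percentile was 75.1 and 59.6 on the microvesicle arrays and 76.2 and 115 on the control arrays. The upper range was thus lowest on microvesicle replicate 2 and highest on control replicate 2. Of the markers of cardiomyocytes, 23 of 29 probes were detected on no array, among them those of Nppa, Actc1, Myl2 and Tnni3. Tnnc1 was detected on all 4 arrays and 1 probe each of Des and Ldb3 on both control arrays. Detected but not kept were 1 probe each of Mb, Myh6 and Myl4 on microvesicle replicate 1, that of Mb also on control replicate 2. Detected probes numbered 4 and 1 on the microvesicle arrays and 3 and 4 on the control arrays. None of the 3 kept probes passed, and the summed signal of the markers was 1140 and 1175 on the microvesicle arrays and 1207 and 1226 on the control arrays. Of the fibroblast markers, 11 of 22 probes were kept, including those of Vim, Col1a2 and Col3a1, whereas Col1a1, Pdgfra, Ddr2 and Col5a2 were detected on no array. Of the kept fibroblast probes 1 of 2 for Col6a1 fell by 1.05 on the log2 scale (limma adjusted p = 0.0170) and 1 of 2 for Sparc rose by 0.82 (adjusted p = 0.0469). The summed signal of the fibroblast markers overlapped between the groups, with 4852 and 2969 on the microvesicle arrays and 4409 and 7811 on the control arrays. The part of cell type markers in the values below was not tested. In bulk RNA, fewer cells carrying a transcript and less of it per cell cannot be told apart.

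Ribosomal protein genes ranged from the brightest probe on the array to signals within the background. A probe counts as detected where its detection p, the comparison with the negative controls of its array, was under 0.05. Of the 82 probes of both subunits, 49 and 50 were detected on microvesicle replicates 1 and 2, and 51 and 56 on control replicates 1 and 2. Detection on all 4 arrays was found for 47 probes, and 24 were detected on none. In the small subunit 20 of 29 probes were detected throughout and 7 nowhere, and in the large subunit 27 of 53 and 17. The 50 probes detected on both arrays of at least 1 group, 29 of the large and 21 of the small subunit for 26 and 19 genes, were kept for testing. No kept probe was found for 14 large-subunit genes (Rpl13a, Rpl14, Rpl17, Rpl22l1, Rpl27a, Rpl29, Rpl36a, Rpl39l, Rpl3l, Rpl4, Rpl5, Rpl6, Rpl7l1 and Rplp2) or for 5 small-subunit genes (Rps15a, Rps23, Rps27l, Rps3a1 and Rpsa). Every ribosome needs most of these proteins, so a probe that was not detected here does not show that its transcript was absent. Many ribosomal protein genes also have processed pseudogenes of nearly the same sequence, and signal that a probe may share with them cannot be separated.

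Before any normalization, the signals of nearly all kept ribosomal protein probes were lower on both microvesicle arrays than on both control arrays. This held for 46 of the 50 kept probes, 27 of 29 in the large and 19 of 21 in the small subunit, against 55.5% of all 3762 kept probes on the array. For the other 4, Rpl21, Rps2, Rps3 and the dimmer kept probe of Rpl38, the groups overlapped, and 0 were higher on both microvesicle arrays. Rpl35a, Rplp0 and the dimmer kept probe of Rps19, all among the 46, were kept through the control arrays alone, which favours lower microvesicle signals. The member probes together gave 5.40% and 4.81% of the summed brightness of the microvesicle arrays and 6.60% and 7.36% of that of the control arrays. These sums hold the background of every probe, since none was subtracted, so the shares also vary with the brightness of an array above its background. That part was not tested.

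The brightest members show the pattern. Rplp1, an acidic protein of the ribosomal stalk that recruits elongation factors, had signals of 16995 and 14315 with microvesicles and 20382 and 23439 in controls. Rpl23a, which lines the exit of the nascent chain and binds the signal recognition particle, had 6160 and 5112 with microvesicles and 11002 and 16460 in controls. The control arrays were higher for both genes without overlap, and control replicate 2 was the highest of the 4. Rps13, a protein of the small subunit that contacts the large one, had 3805 and 2546 with microvesicles and 4990 and 13872 in controls. Rps6, the substrate of the S6 kinases, had 4641 and 3592 with microvesicles and 4993 and 6780 in controls. In both small-subunit genes the gap between the controls was wider than the gap between the groups. Rps2, near the messenger RNA entry, had 8369 and 5068 with microvesicles and 8297 and 13479 in controls, so its groups overlapped.

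**Figure D1:**
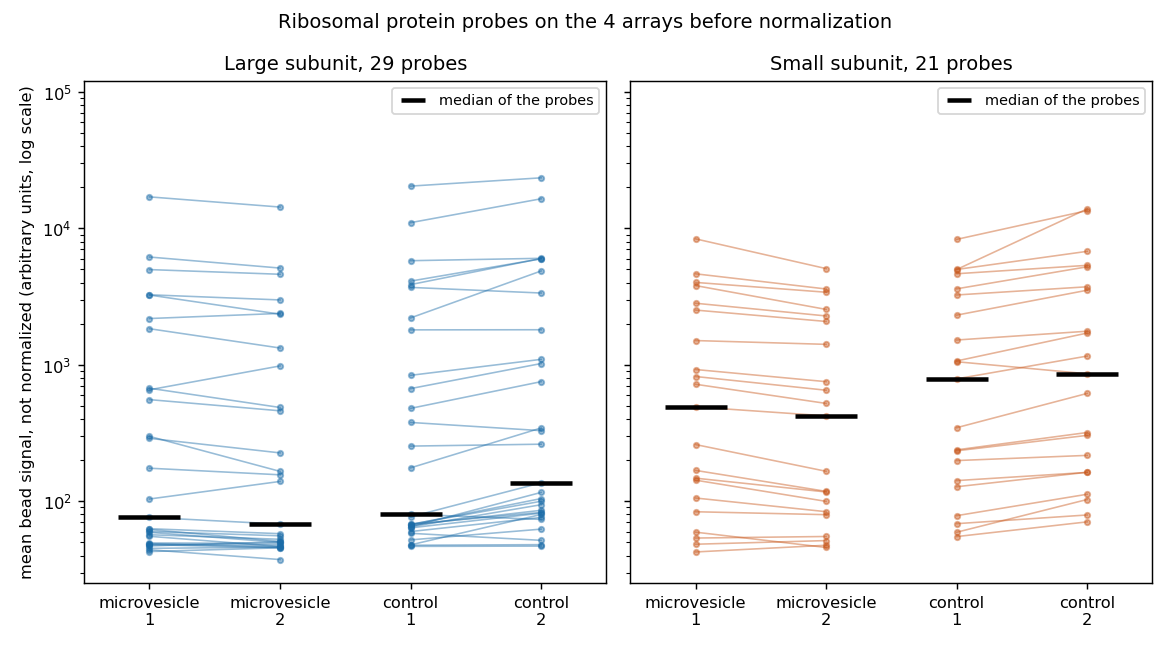
Mean bead signal before normalization (log axis, arbitrary brightness units) of the kept ribosomal protein probes, 1 point a probe on each array, lines joining the replicates of a group and bars at the median of the probes. In 46 of 50 kept probes of the 2 subunits both microvesicle points lie below both control points, from dim probes such as Rpl3 to Rplp1, the brightest.

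In size, the lower signals of the brighter members matched those of other bright probes, whereas dim members lay further below other dim probes. With the background removed but the arrays not yet scaled to each other, the median log2 difference, microvesicle minus control, was -0.78 over the kept large-subunit probes and -0.95 over the small-subunit probes, against -0.43 over all kept probes. Replicates also differed on this scale. Control replicate 2 minus control replicate 1 had medians of 0.55 and 0.47 over large- and small-subunit probes and 0.55 over all kept probes, and microvesicle replicate 2 minus replicate 1 had -0.24, -0.35 and -0.39. Among kept probes with a mean signal of 100 or more, 30 of 31 members were lower on both microvesicle arrays before normalization, against 59.9% of all such probes, and the median unscaled differences were -0.93 in members and -0.91 in all. Among those under 100, 16 of 19 members were lower against 53.8%, with medians of -0.81 in members and -0.33 in all. Of these 19, Rpl35a, Rplp0 and the dimmer kept Rps19 probe were kept through the control arrays alone. The same filter applied to all probes, and its part in these values was not tested. After quantile normalization, which gives every array the same distribution of values, the medians were -0.07 in members and -0.05 in all for the brighter probes. They were -0.34 in members and -0.07 in all for the dimmer ones. Over probes detected on all 4 arrays, of either brightness, they were -0.10 in members and -0.004 in all. No test was made of these medians, since members of a family are not independent of each other.

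**Figure D2:**
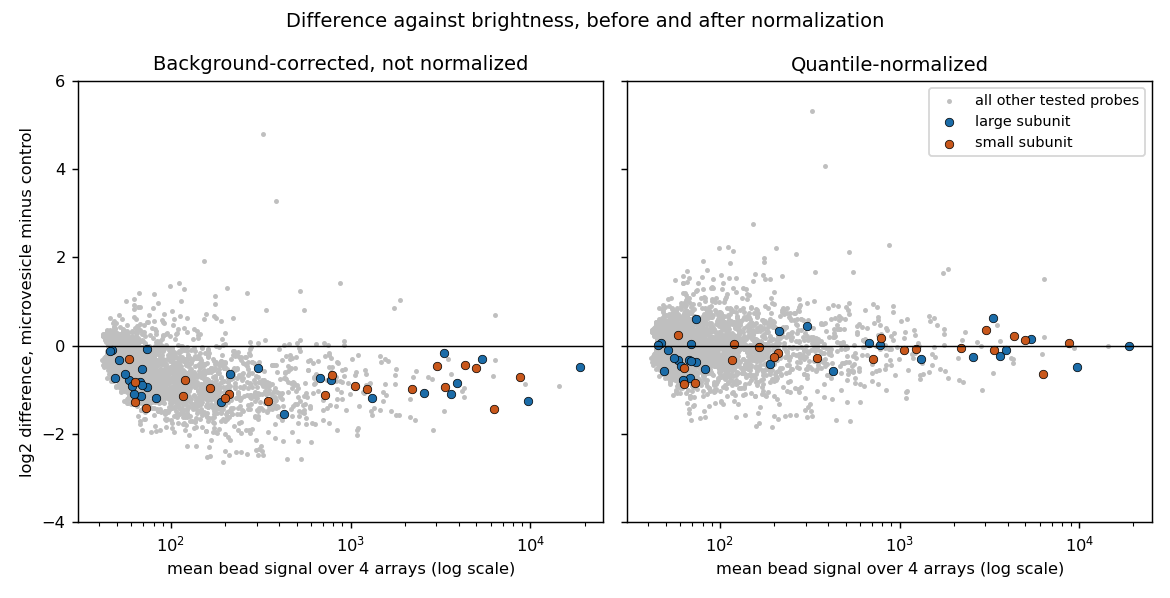
Log2 difference, microvesicle minus control, against mean signal (log axis) for kept ribosomal protein probes and all other kept probes (grey), before scaling and after quantile normalization. Among probes with a mean signal of 100 or more, members and all probes have medians of -0.93 and -0.91 before scaling and -0.07 and -0.05 after quantile normalization. Of these members 30 of 31 were lower on both microvesicle arrays before normalization, against 59.9% of all such probes.

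After normalization 1 of the 50 kept ribosomal protein probes, that of Rpl3, passed the test. It was lower, against 4.12% of all kept probes that were lower and 7.55% that changed either way (limma with Benjamini-Hochberg adjustment, adjusted p under 0.05). None of the 50 was higher past the threshold, against 3.43%. At an unadjusted p under 0.05 there were 11, of which 10 were lower (7 large, 3 small) against 13.8% of all kept probes, and 1 was higher, the dimmer kept probe of Rpl38, against 11%. Normalized signals were lower on both microvesicle arrays in 16 of 50 (11 large, 5 small) against 32.7% of all kept probes, and higher on both in 4 (Rpl30, Rpl41, Rps12 and the dimmer Rpl38 probe) against 24.9%. The difference was below 0 in 32 of 50, 18 of 29 in the large and 14 of 21 in the small subunit, against 56% of all kept probes. The share of members lower on both arrays was close to the background, and the share higher on both was below it. The share of lower members was above the background at an unadjusted p under 0.05 and for differences below 0, and below it among probes that passed. These shares were not tested. Differences ran between -0.86 and 0.62, and their median was -0.25 in the large subunit and -0.10 in the small subunit, against -0.06 over all kept probes.

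**Figure D3:**
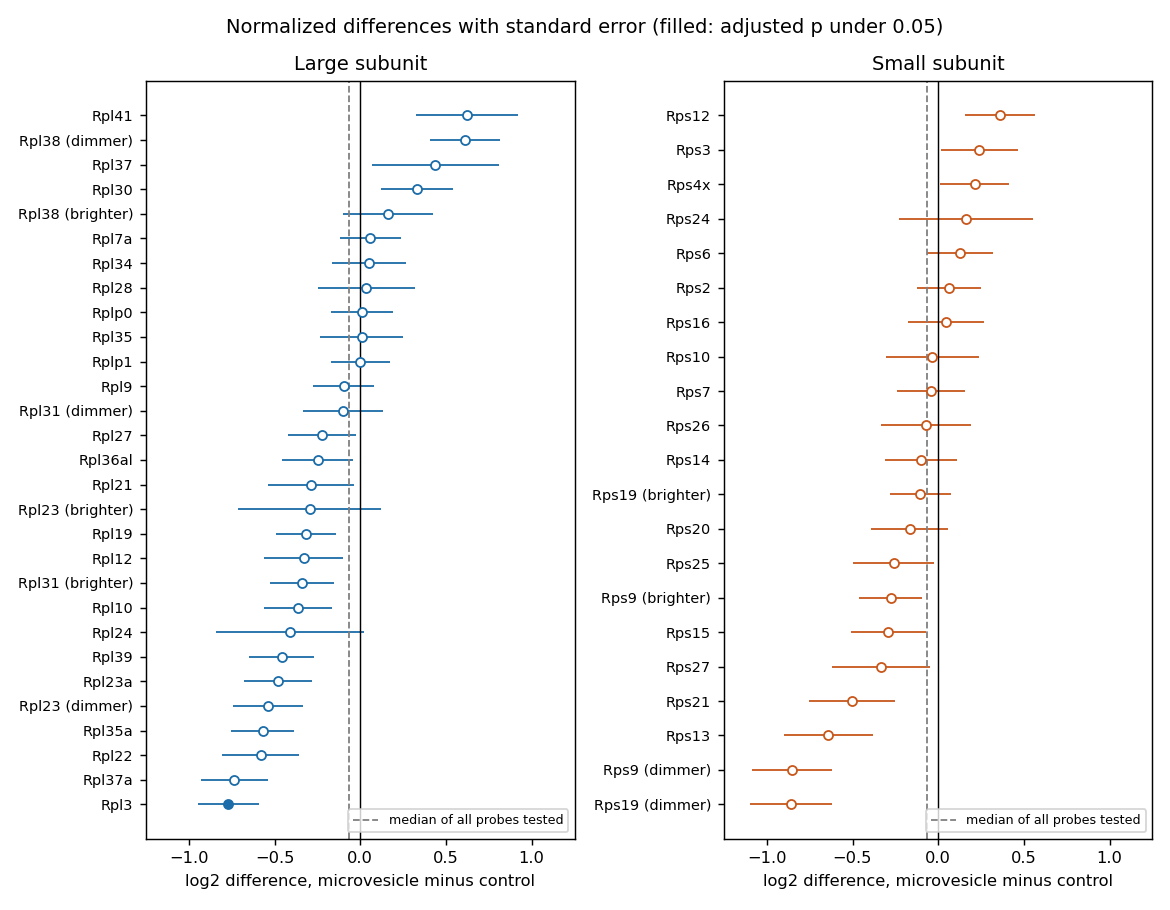
Normalized log2 difference, microvesicle minus control, with its standard error from limma, for every kept ribosomal protein probe by subunit, with the filled point for adjusted p under 0.05 and the dashed line at the median of all kept probes. Values run between -0.86 (dimmer Rps19 probe) and 0.62 (Rpl41), and Rpl3 at -0.77 is the only probe of the 50 that passed.

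Rpl3, a core protein of the large subunit near the site of peptide bond formation, had signals of 48.9 and 46.3 with microvesicles and 66.8 and 85.8 in controls. The standard errors over its beads were 2.81 and 2.71 on the microvesicle arrays and 4.40 and 4.84 on the control arrays. Both microvesicle signals lay below both controls, and all 4 arrays detected the probe, though at a dim level. Its normalized log2 signal was 4.69 ± 0.04 with microvesicles and 5.46 ± 0.11 in controls (SD, n = 2 each), a fall by 0.77 (SE 0.18, limma adjusted p = 0.0409), or 1.71-fold lower. The direction held in every alternative, between -1.06 and -0.35, but the adjusted p ranged between 0.0277 and 0.444. The call was lost without background correction (-0.35, limma adjusted p = 0.0739), with no detection filter (adjusted p = 0.0971), at an adjusted p under 0.01, with the arrays aligned on the median of all probes or of the kept probes in place of quantile normalization (all-probe and kept-probe medians), and when any 1 array was left out. Its muscle-enriched paralog Rpl3l was detected on 1 array, with 41.5 and 39.1 with microvesicles and 44.5 and 49.9 in controls.

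The other large-subunit genes with the most negative differences did not pass in the reported setting. Rpl37a, a zinc-binding protein, had signals of 55.4 and 46.6 with microvesicles and 67.4 and 105 in controls, a log2 difference of -0.73 (SE 0.20, limma adjusted p = 0.0647). Its adjusted p ranged between 0.0406 and 0.444 over the other settings that did not cross the replicate numbers, and it passed under either stricter detection filter and under robust, trended variance estimation. Rpl22, which is dispensable for most translation and has roles in lymphocyte development, had 299 and 166 with microvesicles and 479 and 752 in controls, a difference of -0.58 (SE 0.23, adjusted p = 0.159). In both genes control replicate 2 was the highest and microvesicle replicate 2 the lowest array. The Rpl22 difference was -1.06 and passed when the medians of the kept probes were aligned instead (limma adjusted p = 0.00771). Rpl35a, whose human counterpart is mutated in some patients with Diamond-Blackfan anaemia, had 44.1 and 37.4 with microvesicles and 52.1 and 62.5 in controls. Neither microvesicle array detected it, and its bound there was at least 1.31-fold lower, a value that was not tested. The test was of its measured log2 difference, -0.57 (SE 0.18, limma adjusted p = 0.105). That adjusted p was 0.0263 under robust, trended estimation, in a range between 0.0263 and 0.667 over the alternatives. Rpl23a had a normalized difference of -0.48 (SE 0.20, adjusted p = 0.181).

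Other large-subunit genes lay above 0 after normalization although their signals were not higher before it. Rpl41, the smallest ribosomal protein, had 3258 and 2986 with microvesicles and 3690 and 3356 in controls. Its normalized difference was 0.62 (SE 0.30, limma adjusted p = 0.243), but -0.13 with all-probe medians aligned, and it was 0.15 without control replicate 2 and 1.09 without control replicate 1. Rpl30, which in yeast represses the splicing of its own transcript, had 175 and 156 with microvesicles and 176 and 344 in controls. Its difference was 0.33 (adjusted p = 0.361), against -0.60 with all-probe medians and -0.16 with kept-probe medians aligned. Rpl37, another zinc-binding protein, had 289 and 226 with microvesicles and 378 and 329 in controls and a difference of 0.44 (SE 0.37, adjusted p = 0.483), which turned to -0.46 and -0.02 under the same alignments and to -0.22 without control replicate 2. For these 3 genes the sign thus depended on the scaling.

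The genes of the stalk gave little change to measure. Rplp0, the anchor of the stalk and a common reference gene in expression studies, had 42.8 and 45.6 with microvesicles and 46.7 and 46.9 in controls on its kept probe, close to background, with a normalized difference of 0.01 (SE 0.18, limma adjusted p = 0.974) that was -0.07 with all-probe medians aligned. Rplp1 was the brightest probe on all 4 arrays, so quantile normalization set it to the same value, 14.20, on each and its normalized difference of 0 carries no information. Its unscaled difference was -0.49, and it was -0.45 with all-probe medians aligned, 0.00 with kept-probe medians aligned and 0.46 in the submitters' processed values (adjusted p = 0.296), so its direction was not settled. Rplp2 was detected on no array. Rpl5, which binds 5S ribosomal RNA and Mdm2, was detected on 1 array, control replicate 2, with 40.2 and 36.5 with microvesicles and 41.4 and 55.9 in controls, and Rpl11 has no probe under that symbol.

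In the small subunit 0 of 21 kept probes passed. Rps19 is the gene most often mutated in Diamond-Blackfan anaemia in humans. Its dimmer kept probe had signals of 42.5 and 47.6 with microvesicles and 59.3 and 103 in controls. The log2 difference was -0.86 (SE 0.24, limma adjusted p = 0.072). Microvesicle replicate 1 did not detect this probe, so the signal of 42.5 lay within the background. Rps9, a protein that binds ribosomal RNA early in assembly, had 48.4 and 51.5 with microvesicles and 78.4 and 113 in controls on its dimmer kept probe, a difference of -0.85 (SE 0.23, adjusted p = 0.0678). In both the groups did not overlap. Over the alternatives the adjusted p of this Rps9 probe ranged between 0.0197 and 0.465, and that of the Rps19 probe between 0.0273 and 0.487, each passing at detection p under 0.01 and under robust, trended estimation. Rps13, with the signals given above, had a difference of -0.64 (SE 0.26, limma adjusted p = 0.173), which was -0.32 without control replicate 2 and -1.03 without control replicate 1.

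Rps21, a small-subunit protein with no bacterial counterpart, had 59.4 and 45.8 with microvesicles and 68.5 and 79.3 in controls, a log2 difference of -0.50 (SE 0.25, limma adjusted p = 0.263). At the other end, Rps12 had 2824 and 2279 with microvesicles and 3248 and 3728 in controls and a normalized difference of 0.36 (SE 0.20, adjusted p = 0.308), against -0.42 with all-probe medians aligned. Rps3, which also acts in DNA repair, had 53.8 and 55.2 with microvesicles and 55.1 and 70.6 in controls on its kept probe, a difference of 0.24 (adjusted p = 0.526) that was -0.26 with all-probe medians aligned. Their groups lay apart before normalization in Rps21 and Rps12 and overlapped in Rps3. The X-linked Rps4x (0.21), Rps24 (0.16), Rps6 (0.13) and Rps2 (0.06) also lay above 0 and turned negative with all-probe medians aligned (-0.39, -0.62, -0.47 and -0.66). Rpsa, also known as the laminin receptor precursor, had 2 probes and neither was detected on any array. Rps19bp1, a binding protein of Rps19 and of the deacetylase Sirt1, had 45.5 and 43.1 with microvesicles and 49.3 and 46.3 in controls, a difference of -0.10 (SE 0.19, adjusted p = 0.755) that was 0.33 with kept-probe medians aligned.

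Within 5 genes 2 probes were kept, and 0 of these genes had probes of opposite sign. The sizes were unequal. In Rps19 the log2 difference was -0.86 on the dimmer probe and -0.10 (SE 0.18, limma adjusted p = 0.733) on the brighter one, whose signals were 2517 and 2077 with microvesicles and 3602 and 5224 in controls. In Rps9 it was -0.85 on the dimmer and -0.28 (SE 0.18, adjusted p = 0.375) on the brighter probe, and in Rpl23 -0.54 and -0.30. In Rpl38, which in mice is needed for the translation of some Hox mRNAs, it was 0.61 (SE 0.20, adjusted p = 0.117) on the dimmer probe and 0.16 (SE 0.26, adjusted p = 0.721) on the brighter one, and both were negative with all-probe medians aligned (-0.03 and -0.26). In Rpl31 the brighter probe had the larger difference, -0.34 against -0.10. After quantile normalization the difference was thus larger on the dimmer probe in the genes Rps19, Rps9, Rpl23 and Rpl38. With the background removed but the arrays not yet scaled, this order held in Rps19 and Rps9. It did not hold in Rpl23 (-1.18 on the dimmer and -1.19 on the brighter probe) or in Rpl38 (-0.07 and -0.30). Whether probes of 1 gene differed was not tested.

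In each of 5 pairs of paralogs 1 gene was near background. Rpl22l1 and Rps27l were detected on no array, and Rpl36a, Rpl39l and Rpl3l each on 1 array. The other gene of each pair was measurable. Rpl36al had 1837 and 1327 with microvesicles and 2206 and 4869 in controls (log2 difference -0.25, limma adjusted p = 0.481), with -0.02 without control replicate 2 and -0.45 without control replicate 1. Rpl39, at the exit tunnel, had 49.5 and 49.1 with microvesicles and 63.9 and 81.8 in controls (-0.46, adjusted p = 0.183). Rps27 had 83.8 and 79.7 with microvesicles and 142 and 163 in controls (-0.33, adjusted p = 0.486). All 3 had higher signals on both control arrays, and none passed the test. No shift between paralogs could be read from pairs of which 1 member was not above background.

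The size of the family's difference depended on how the arrays were scaled. The median over all kept probes was -0.06 with quantile normalization, -0.39 when all-probe medians were aligned and 0.05 when kept-probe medians were aligned. Under the same scalings the large-subunit median was -0.25, -0.74 and -0.30, and the small-subunit median was -0.10, -0.91 and -0.47. The members thus lay below the median of all kept probes by 0.19 in the large and 0.03 in the small subunit with quantile normalization, and by 0.35 and 0.52 under either alignment. With all-probe medians aligned, 50 of 50 kept members were below 0 against 84.6% of all kept probes, so all 17 that had been above 0 changed sign. With kept-probe medians aligned, 41 of 50 were below 0 against 46.5% of all kept probes, and 3 passed, all lower (Rpl22, Rps9 and Rps13), against 7.36% of all kept probes that were lower there. That fit gave every probe the same standard error, 0.30, so its calls rested on size alone. The submitters' own processed values, in which the distributions of the arrays were already alike, gave medians of -0.14 in the large and -0.04 in the small subunit against -0.07 over all kept probes, so the small-subunit median lay above that of all probes there. In those values Rpl3 was again the only member that passed (-0.83, limma adjusted p = 0.0366).

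**Figure D4:**
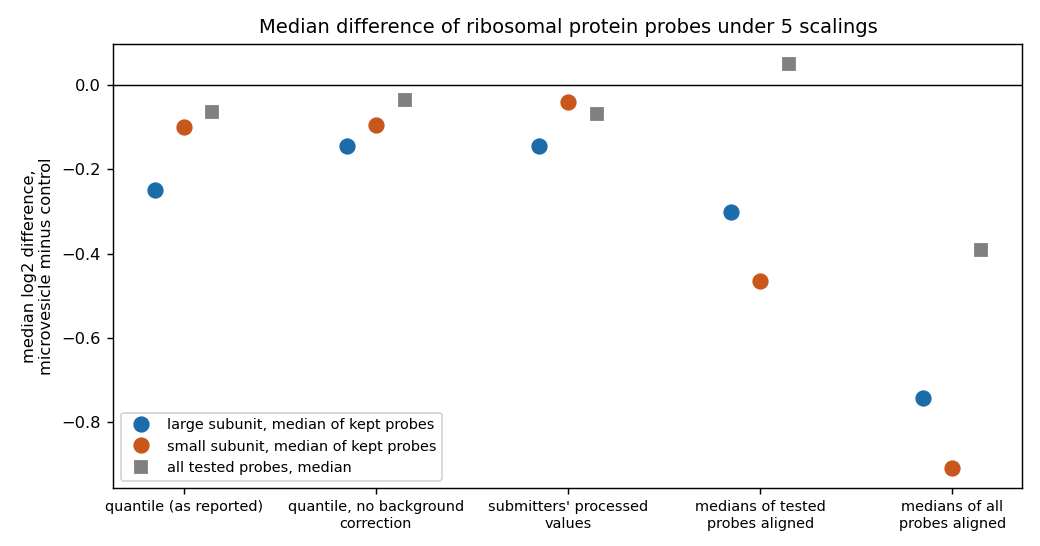
Median log2 difference, microvesicle minus control, of kept large-subunit probes, kept small-subunit probes and all kept probes under each way of scaling the arrays. With quantile normalization the medians are -0.25, -0.10 and -0.06, and with all-probe medians aligned they are -0.74, -0.91 and -0.39.

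Genes that build ribosomes were looked at beside the ribosomal proteins. Of 110 genes of RNA polymerase I, ribosomal RNA processing and subunit assembly, 98 were on the array and 31 probes of 30 genes were kept. None rose or fell past the threshold, against 3.43% and 4.12% of all kept probes. At such shares, 0 of 31 says little about the list. The median was -0.14, against -0.06 over all kept probes. The largest differences were those of Rrp1b, a nucleolar processing factor, and Polr1e, a polymerase I subunit. Rrp1b had 60.8 and 81.6 with microvesicles and 182 and 152 in controls (-0.86, SE 0.50, limma adjusted p = 0.327), with values between -1.62 and -0.15 when 1 array was left out. Polr1e had 49.8 and 46.2 with microvesicles and 56.4 and 101 in controls (-0.66, adjusted p = 0.115), with -0.96 to -0.30 when 1 array was left out.

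Other genes whose mRNAs carry a TOP tract, or whose products sit on the ribosome, had a median difference above 0 after quantile normalization. Of 19 kept probes of 13 such genes, 3 rose, against 3.43% of all kept probes, 0 fell, against 4.12%, and 16 did not pass. Their median was 0.27 against -0.06 over all kept probes. Before normalization the summed signal of the 37 probes of the list was 11673 and 8737 on the microvesicle arrays and 12469 and 22944 on the control arrays. How far the sign of this median depended on the scaling was not tested. Naca, the alpha subunit of the complex that shields nascent chains, rose by 0.95 on 1 probe (limma adjusted p = 0.0232) and by 0.85 on a second (adjusted p = 0.0445), while a further kept probe had -0.45 (adjusted p = 0.188). The signals of the first were 233 and 159 with microvesicles and 132 and 276 in controls, which overlapped before normalization. Pabpc1, the poly(A)-binding protein, rose by 0.76 (adjusted p = 0.0397), with 64.1 and 53.3 with microvesicles and 49.1 and 56.2 in controls. None of these calls held with either alignment of medians, and the second Naca probe turned to -0.10 with all-probe medians. Fau, whose product is cut to give ribosomal protein Rps30, had 2876 and 2510 with microvesicles and 4210 and 7008 in controls (-0.29, adjusted p = 0.342). Of 28 kinases and factors that control ribosomal protein synthesis, 22 were on the array and 12 probes were kept. None passed, and with shares of 3.43% higher and 4.12% lower over all kept probes, 0 of 12 says little about the list. The median was -0.09, against -0.06 over all kept probes. The most negative were 1 probe of Mlst8, a subunit of the mTOR complexes (-0.59, limma adjusted p = 0.0876), and 1 of Tsc2 (-0.59, adjusted p = 0.220). The other kept probe of each had 0.17 in Mlst8 (adjusted p = 0.564) and -0.19 in Tsc2 (adjusted p = 0.598).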

How the data were processed

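Total RNA was amplified, labelled with Cy3 and hybridized to 4 bead arrays. The submitters' processing notes name BeadStudio 3.3. The deposited non-normalized intensity of a probe is the mean brightness of its beads, with no background subtracted, and the deposited detection p-value compares it with the array's negative controls. Numbers and standard errors of beads (medians of 40 to 41 beads) were deposited as well. The deposited processed intensity is background-subtracted, and the sources used here do not give its normalization.

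Values were computed with limma 3.58.1 in R 4.3.3. Background was modelled with neqc (normal-exponential convolution, controls inferred from detection p, offset 16), followed by quantile normalization and log2, which compresses differences of dim probes. A probe was kept if both arrays of either group had detection p under 0.05 (3762 probes). lmFit and eBayes were fitted over all of them on group alone (two-sided, Benjamini-Hochberg). Exact permutation over 4 arrays reaches no p below 0.333 and was not used. The number of arrays limits the precision. For a probe not detected in 1 group, the bound is the other group's mean over the lowest detected signal or the probe's own, whichever is higher.

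Symbols came from a platform annotation table, and those of all 66 member genes matched RefSeq by Entrez identifier. 7 Rps6k probes were left out. The members and gene lists were chosen with earlier results of these data known. Named were members that passed, the 4 highest and 4 lowest differences and the 3 brightest probes of each subunit, paralog pairs, and Rplp0, Rplp1, Rplp2, Rpsa, Rps6, Rps3, Rpl5, Rpl11 and Rps19bp1. Per companion list, probes that passed or the 2 largest differences were named. Fau, and the further probes of genes with 2 kept probes, were named after their values were seen. On simulated data with 3762 probes, 72% of 2-fold changes and 98.5% of 4-fold changes were recovered, and 0 probes were called with no change. Of the calls, 3.36% at 2-fold and 7.51% at 4-fold were false. The simulated noise was normal, independent between probes and added after normalization. It therefore held no brightness differences between arrays and cannot show how the calls depend on scaling. Alternatives changed the background correction, scaling, source of values, detection filter, variance moderation, threshold, replicate block and arrays used.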

Additional observations from a re-analysis of the deposited data

How the results depend on the processing

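Depth was limited by brightness, since 24 of 82 ribosomal protein probes were detected nowhere, and by 2 arrays a group. Against 1 of 50 members called (284 of 3762 probes), the counts of members, with all probes in parentheses, were 0 (0; 398 unadjusted) with all-probe medians aligned, 3 (353, 9.38%) with kept-probe medians aligned, 0 (296) without background correction, 0 of 82 (29 of 25697) with no detection filter, 3 of 47 (335 of 2459, 13.6%) for probes detected on all 4 arrays, 4 of 47 (358 of 2880, 12.4%) at detection p under 0.01, 5 (593, 15.8%) with trend and robust estimation and 0 (67) at adjusted p under 0.01. At an unadjusted p under 0.05, the settings with 0 members had 16 (10.6% of all probes) with all-probe medians, 10 (24.2%) without background correction and 14 of 82 (7.54%) with no filter. Every member called in any setting was lower. Same-numbered samples deviated from their group means with a correlation of -0.13 after normalization. With 2 arrays a group, this value cannot settle whether the numbers pair the samples. With the replicate block limma called 3 members (Rpl3, Rps9 and Rps19) and 313 probes, and with a crossed replicate block, chosen after seeing the data, 3 and 396. Leaving out 1 array gave 0 members of 51 to 56 (9 to 16 unadjusted) and 0 to 10 probes of 4600 to 5464 (765 to 1102 unadjusted), with a lone sample assumed to vary like the other group.

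The 3 rises of the TOP list became 0 with either alignment, with no filter, at adjusted p under 0.01 and with any array left out. The assembly list had 1 lower without background correction, 4 with kept-probe medians aligned and 1 with trend and robust estimation, and the translation control list had 2 (1 higher, 1 lower) in that last setting. The large-subunit median was -0.74 with all-probe medians aligned, -0.042 with no filter and -0.26 to -0.013 with 1 array left out (-0.013 without microvesicle replicate 1). The small-subunit median was -0.91 with all-probe medians aligned and -0.35 to 0.060 with 1 array left out.

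With all-probe medians aligned the sign of 17 kept members turned, among the named in Rpl30 (-0.60), Rpl37 (-0.46), Rpl38 (-0.028 and -0.26), Rpl41 (-0.13), Rplp0 (-0.075), Rps12 (-0.42), Rps2 (-0.66), Rps24 (-0.62), Rps3 (-0.26), Rps4x (-0.39), Rps6 (-0.47) and also in 1 probe of Naca (-0.095). With kept-probe medians aligned 10 kept members turned (9 to negative), among the named Rpl30 (-0.16), Rpl37 (-0.020), Rps2 (-0.22), Rps24 (-0.17) and Rps6 (-0.030), and Rps19bp1, in neither subunit, was 0.33. Among named probes whose sign turned, leaving out 1 array gave -0.22 to 1.10 for Rpl37, -0.18 to 0.59 for the brighter Rpl38 probe, -0.11 to 0.13 for Rplp0, -0.060 to 0.21 for Rps2, -0.48 to 0.84 for Rps24, -0.029 to 0.30 for Rps6, -0.17 to 0.024 for Rps19bp1, -0.64 to 0.012 for Rps27 and -0.053 to 0.53 for Rps3. The cause was not tested.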
